A study of Mus musculus with 2 samples.

Results

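Tcf7, Lef1, Ets1 and Bcl11b encode transcription factors that mark T cells, and STAT3 and STAT5 reads were compared around these 4 genes in mouse T helper 17 (Th17) cells, which are CD4 T cells that secrete IL-17. Each gene was taken as a fixed stretch of the mm9 genome. The Tcf7 window was chromosome 11 from 52030000 to 52160000, the Lef1 window chromosome 3 from 130770000 to 130970000, the Ets1 window chromosome 9 from 32400000 to 32620000, and the Bcl11b window chromosome 12 from 109100000 to 109300000. They held 116 of the 86805 sites found across the genome with either antibody: 24 at Tcf7, 32 at Lef1, 36 at Ets1 and 24 at Bcl11b. The windows were selected on these same STAT3 and STAT5 read counts, and 1 site at Tcf7 was chosen by its higher STAT3 reads, so the values below describe these libraries and carry no test.

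There were 2 chromatin immunoprecipitation sequencing libraries, both from wild type C57BL/6J mice. Naive CD4 T cells, sorted from spleen and lymph nodes, had been cultured for 3 days on antibodies to CD3 and CD28 with IL-6 at 20 ng/ml, TGF-beta at 2 ng/ml and an antibody to IL-4. The labels also list an antibody to IL-2, dosed in the unit usual for IL-2 itself, so its role is unclear. The STAT3 library came from cells given IL-6 at 40 ng/ml for 30 minutes, and the STAT5 library, precipitated with antibodies to STAT5A and STAT5B together, from cells given IL-2 at 200 IU/ml for 30 minutes. Antibody and cytokine changed together and cannot be told apart. There was 1 library per antibody, no input or IgG library was analysed here, and every interval covers counting error only. The STAT3 library held 20784388 nuclear reads and the STAT5 library 17963766.

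As background, Tcf7 (which encodes TCF-1) and Lef1 are closely related HMG box factors that bind DNA at the same kind of site and can pair with beta-catenin in Wnt signalling. Both are high in naive and memory-like T cells and act from the earliest steps of thymic development. Ets1 is a founding member of the ETS family and is abundant in resting lymphocytes. Bcl11b is a zinc finger factor needed for progenitors to commit to the T lineage and for T cells to keep that identity. STAT3 is activated by IL-6 and is required for Th17 differentiation, while STAT5A and STAT5B are activated by IL-2 and can restrain it, and both factors recognise similar DNA sequences. The data hold binding and no expression, so whether these genes were on in the cells was not measured.

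Reads were counted as fragment centres in windows of 200 bp and scaled by the nuclear reads of each library to RPM, the usual rate of reads per 1000000. A site is a stretch where at least 1 library rose at least 4-fold over its surroundings, and sites are numbered along the chromosome within each window. A site was called higher with 1 antibody when the exact 95% interval of the ratio of RPM lay wholly beyond 2-fold. The deposited reads occupy each position and strand at most 1 time, so 200 bp can hold at most 400 reads. Ratios at the tallest sites are compressed by this ceiling. A correction for positions already taken treats all 400 as equally available, which was not tested. At the tallest sites it rests on few empty positions. Corrected sites were called with an approximate 95% interval in place of the exact one.

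All 4 windows were dense in sites. The genome held 3.68 sites per 100 kb of length with reads, and the windows held 18.5 at Tcf7, 16.4 at Ets1, 16.0 at Lef1 and 12.0 at Bcl11b. When the genome was cut into consecutive bins of the same length as each window, as many sites were found in 0.654% of the bins with a site for Tcf7, 1.06% for Lef1, 0.521% for Ets1 and 7.91% for Bcl11b. Reads were also raised between the sites. Away from any region the Tcf7 window had 1.94 STAT3 RPM per kb, 6.27 times the genome's level between regions, and 1.30 STAT5 RPM per kb, 5.35 times the genome's. Ets1 had the highest STAT5 level between sites, 2.58 RPM per kb or 10.6 times the genome's, beside 1.84 STAT3 RPM per kb (5.95 times). Lef1 was 4.25 times the genome's level with STAT3 and 4.86 times with STAT5, and Bcl11b 3.75 and 4.60 times.

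**Figure D1:**
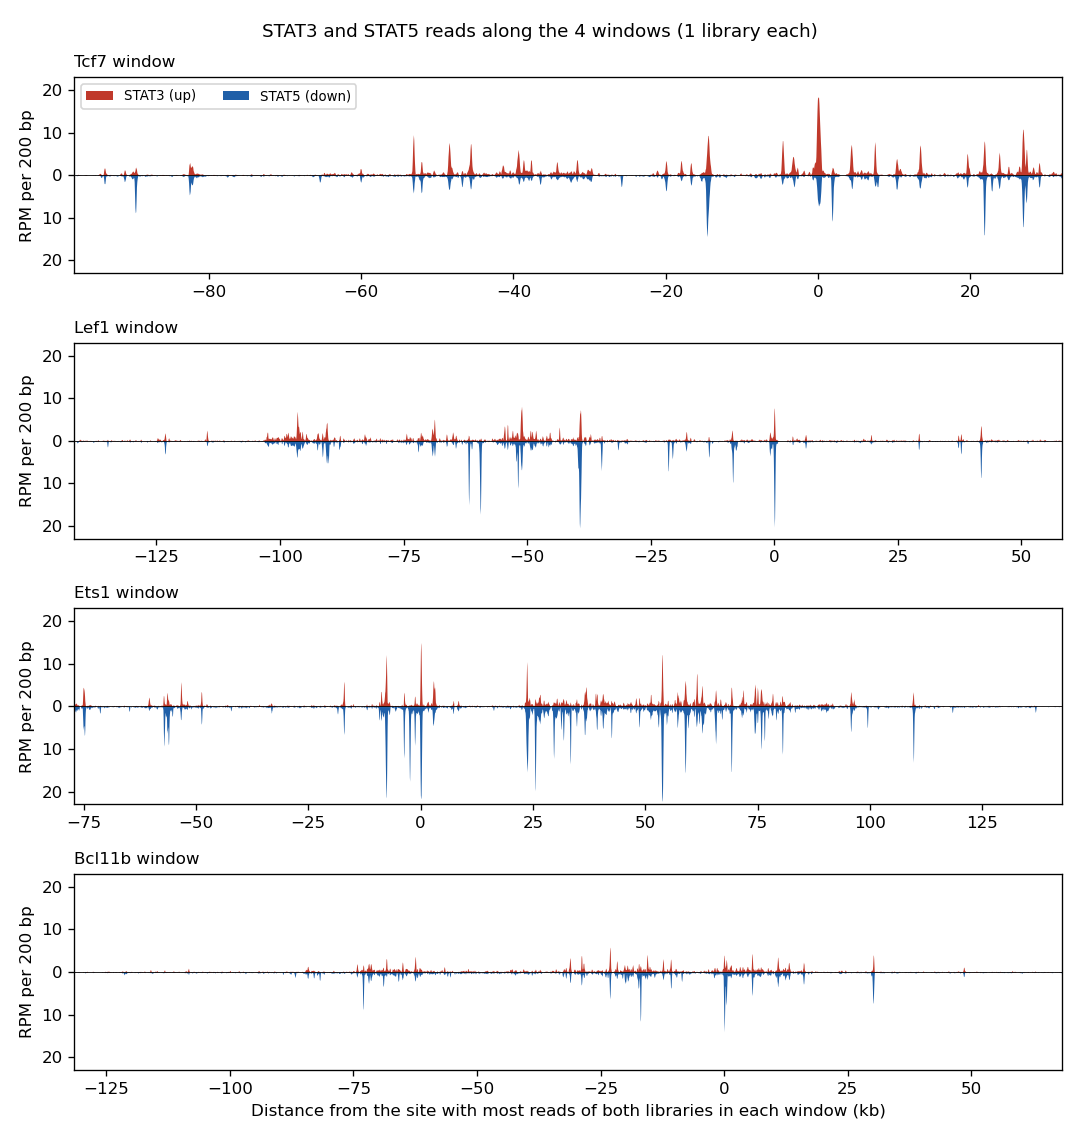
STAT3 RPM (red, upward) and STAT5 RPM (blue, downward) in 200 bp windows moved by 50 bp, against distance in kb from the site with most reads of both libraries in each of the 4 windows. STAT3 peaks at 18.3 RPM in the Tcf7 window, where STAT5 stays at or below 14.4 RPM, while STAT5 reaches 20.4 RPM at Lef1 and 22.2 RPM at Ets1.

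The balance between the antibodies differed from gene to gene. Summed over its sites, Tcf7 had 134 STAT3 RPM (2785 reads) and 116 STAT5 RPM (2086 reads), a ratio of STAT5 to STAT3 of 0.867 (95% interval 0.818 to 0.918). Bcl11b had 55.9 STAT3 and 86.2 STAT5 RPM, a ratio of 1.54 (1.43 to 1.67). At Lef1, 73.8 STAT3 RPM met 172 STAT5 RPM, a ratio of 2.34 (2.20 to 2.48). Ets1 had most reads of the 4 with STAT5, 305 RPM against 127 STAT3 RPM, a ratio of 2.39 (2.28 to 2.51). Tcf7 was thus the lowest, Bcl11b the next, and Lef1 and Ets1 overlapped in their intervals. Over all sites of the genome the same ratio was 1.67. Tcf7 lay on the STAT3 side of the genome, Bcl11b slightly so, and Lef1 and Ets1 on the STAT5 side.

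Among consecutive bins of 130 kb with at least 10 sites, 7.23% had a ratio as low as that of Tcf7 or lower, and the median was 1.58. For Bcl11b, 45.8% of bins of its length had a ratio as low or lower. For Lef1 and Ets1, 18.0% and 15.8% of bins of their length had a ratio as high or higher. The lead of STAT3 at Tcf7 is small. It depends on the scaling and on the site picked for its STAT3 reads: scaling by bins without a region gave a ratio of 1.20, sites of at least 8-fold gave 1.23, and without that site it was 0.951 (0.895 to 1.01). The order of the other genes depended on the choice of sites as well. With sites of at least 8-fold, Ets1 fell to 1.79, below Bcl11b at 2.91 and Lef1 at 3.46. After correction for positions already taken the ratios were 3.76 at Ets1, 3.35 at Lef1, 1.73 at Bcl11b and 0.736 at Tcf7.

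Between sites, too, the ratio was lowest at Tcf7 and highest at Ets1, while Lef1 and Bcl11b overlapped in their intervals. Away from regions the ratio of STAT5 to STAT3 was 0.670 at Tcf7 (0.638 to 0.704), 0.898 at Lef1 (0.860 to 0.937), 0.962 at Bcl11b (0.921 to 1.01) and 1.40 at Ets1 (1.36 to 1.44), against 0.785 for the genome. Subtracting these levels from every site, an alternative chosen after the data were seen, moved the ratio at Tcf7 to 0.881 and at Ets1 to 2.51.

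Calls at single sites, which use the same reads as the sums, showed the same difference. STAT5 was called higher at 27.6% of the sites of the genome, and at 4 of 24 sites at Tcf7 (16.7%), 7 of 24 at Bcl11b (29.2%), 12 of 32 at Lef1 (37.5%) and 16 of 36 at Ets1 (44.4%). STAT3 was called higher at 3.18% of the sites of the genome and at 4 of 116 sites in the windows, all at Tcf7 under these settings. Under the weaker rule that the interval excludes equality, 11 of 24 Tcf7 sites leaned to STAT3, where the genome's share was 17.6%, and so did 7 of 32 at Lef1, 4 of 36 at Ets1 and 4 of 24 at Bcl11b. Under that rule STAT5 was ahead at 28 of 36 sites at Ets1 and 17 of 32 at Lef1. It was ahead at 9 of 24 at Bcl11b and 7 of 24 at Tcf7, with 43.7% for the genome. The interval held equality at 6 of 24 sites at Tcf7, 8 of 32 at Lef1 and 4 of 36 at Ets1. So it did at 11 of 24 at Bcl11b, and at 33627 of 86805 in the genome. Intervals narrow with more reads, so these shares depend on read depth as well as on balance. The ceiling and the scaling both move the number of STAT3-higher sites, in the windows and in the genome. After correction for positions already taken, 9 of 116 were called (8 at Tcf7 and 1 at Bcl11b), with 3.96% for the genome. Under scaling by bins without a region, 2 of 116 were called, with 1.19% for the genome.

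**Figure D2:**
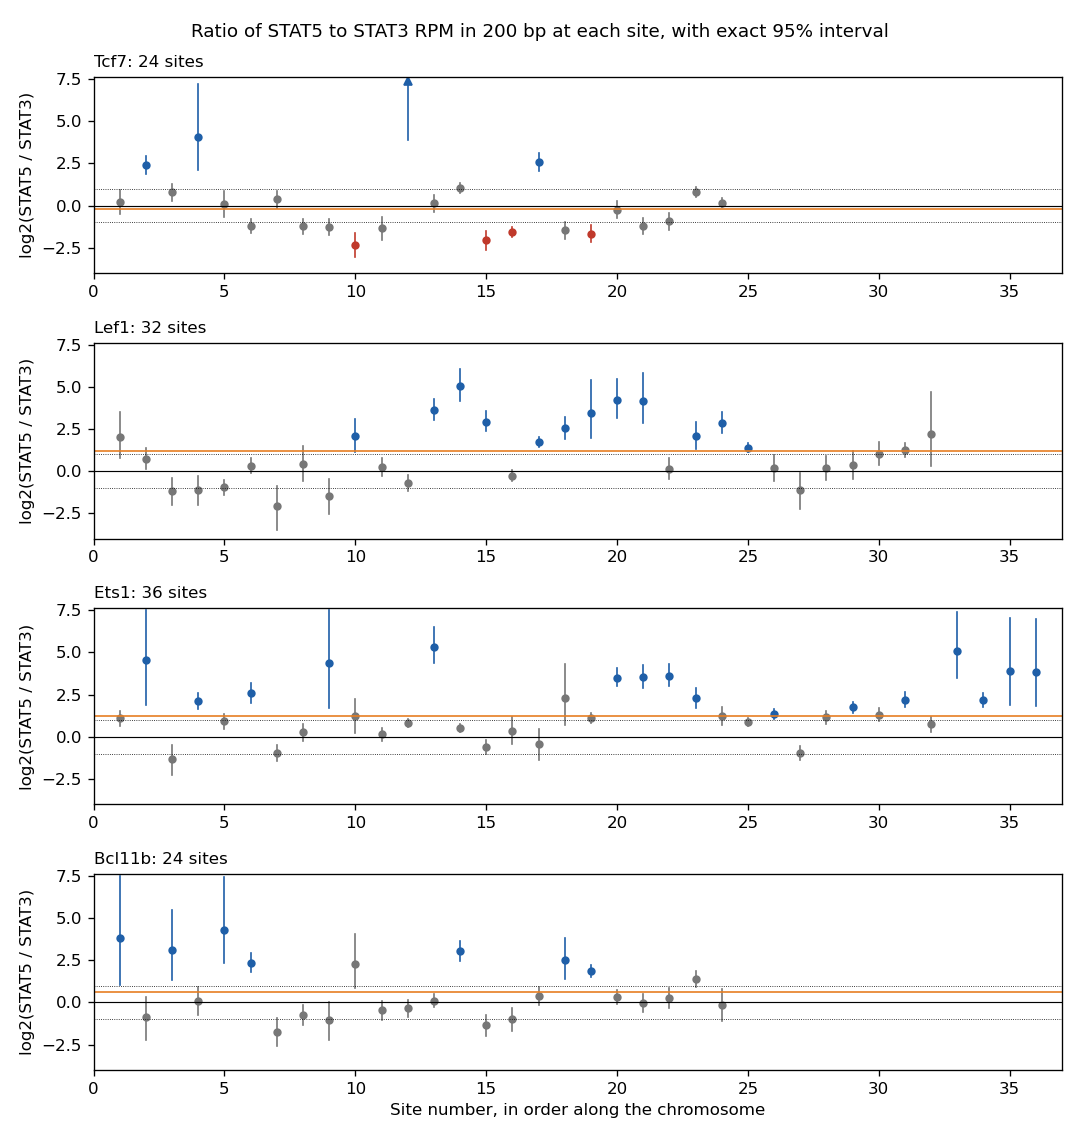
Ratio of STAT5 to STAT3 RPM in 200 bp on a log2 axis for each site in order along the chromosome, with exact 95% intervals cut off at the top of the axis, in blue where STAT5 and in red where STAT3 was called higher. The dotted lines mark 2-fold, and the orange line the ratio of the reads summed over the window's sites. The triangle marks a site without STAT3 reads. Red sites, under the main settings, occur at Tcf7 only.

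Tcf7 held the tallest STAT3 site of the 4 windows, site 16, on chromosome 11 from 52127501 to 52128150. In the 200 bp from 52127651 to 52127850 it had 381 STAT3 reads (18.3 RPM) and 111 STAT5 reads (6.18 RPM), so STAT3 was 2.97 times as high (2.40 to 3.70). This is the site the window was chosen with, and the ratio is a description. STAT3 had taken 95.3% of the positions and strands there and STAT5 27.8%. A correction for positions already taken raised the ratio to 8.10 (6.40 to 10.3), and scaling by bins without a region lowered it to 2.14 (1.73 to 2.67), which ends the call.

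Site 16 was broad. In bins of 50 bp, STAT3 took at least 80 of 100 positions in 7 bins and reached 99, and it had at least 50 in 9 bins. STAT5 was lower and rose across this stretch, from 19 reads in the bin at -125 bp from the site's centre to 36, its highest, at 175 bp. STAT3 had 84 and 92 reads in these bins. At 325 bp STAT5 still had 33 reads, while STAT3 had fallen to 50. Where STAT3 was close to the ceiling its outline cannot be compared with that of STAT5. The medians of the fragment centres in 400 bp lay 31.5 bp apart, and 51.1% of STAT3 and 50% of STAT5 reads were on the plus strand. Against the level between sites in the same window, STAT3 was 47.2-fold and STAT5 23.7-fold higher.

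By STAT3 reads in 200 bp, site 16 ranked 22 of 86805, and by STAT5 reads 12589. Of the 22 sites of the genome with as many STAT3 reads, no other had as high a ratio of STAT3 to STAT5. The median ratio of the 22 was 1.07. Site 16 was chosen by its higher STAT3 reads, so the choice favours this place and no conclusion follows from it. STAT3 is near the ceiling at all of these sites, which compresses their ratios where STAT5 is tall as well. A ratio as high as that of site 16 was found at 5755 sites of any height. Of the 1793 sites with 200 or more STAT3 reads, STAT3 was called higher at 311 (17.3%).

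**Figure D3:**
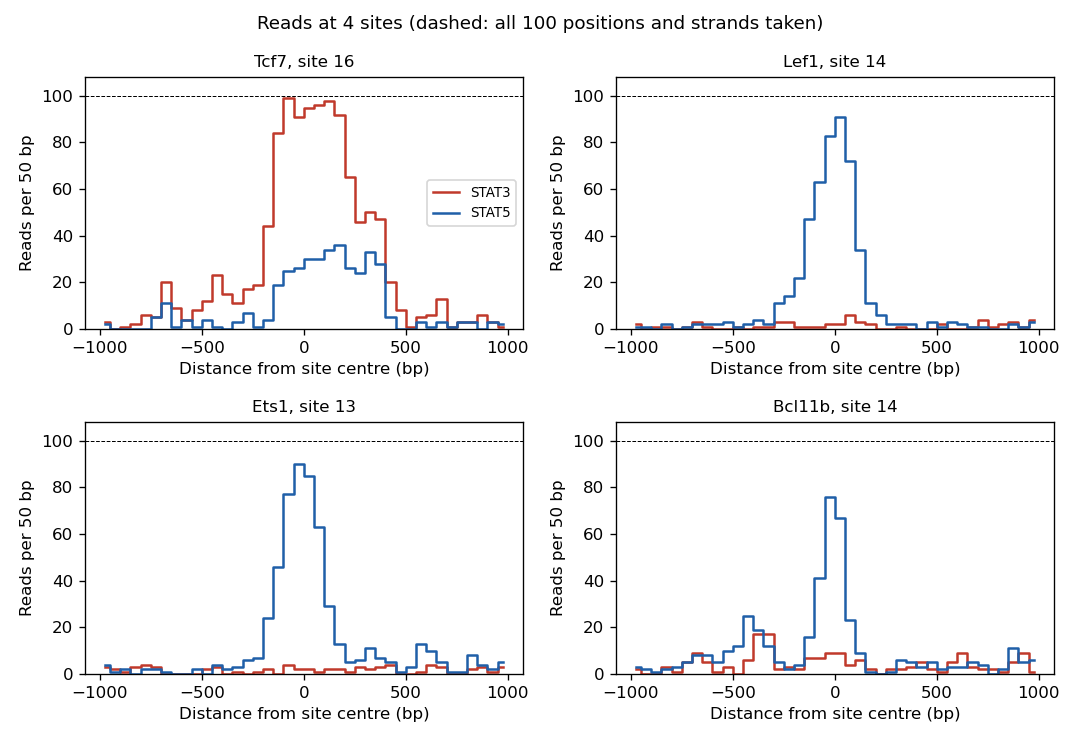
Reads per 50 bp of STAT3 (red) and STAT5 (blue) against distance in bp from the centre of Tcf7 site 16 and of the STAT5-higher site with the largest lower bound at Lef1, Ets1 and Bcl11b, the dashed line marking all 100 positions and strands taken. STAT3 comes near the ceiling at Tcf7 site 16, while at the sites of the other genes STAT5 reaches 91, 90 and 76 reads in a bin and STAT3 at most 17.

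The other STAT3-higher Tcf7 sites were lower and lay on either side of site 16. Site 15, from 52122951 to 52123250, had 169 STAT3 reads against 35 of STAT5, a STAT3 level 4.17 times as high (2.89 to 6.19). Site 19, from 52135051 to 52135750, had 164 and 45 reads (3.15 times, 2.25 to 4.48). Site 10, from 52088251 to 52088500, had 126 and 22 reads, and its ratio of 4.95 (3.13 to 8.18) was the highest toward STAT3 in the 4 windows on the counts as deposited. After correction for positions already taken it was 5.78, below the 8.10 of site 16. Thus 3 of the 4 fell within a stretch around site 16, and site 10 lay apart.

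More Tcf7 sites leaned to STAT3 without reaching the call. Site 6 from 52074401 to 52074800, the third tallest with STAT3, had 198 STAT3 reads against 75 of STAT5, a STAT3 level 2.28 times as high (1.74 to 3.02). Sites 8, 9, 11, 18, 21 and 22 had 77 to 160 STAT3 and 26 to 60 STAT5 reads. With site 6 and the sites called, they make up the 11 that leaned to STAT3. Correction for positions already taken brought sites 6, 8, 9 and 18 past the call, at 2.84 (2.18 to 3.72) for site 6 and 2.72 to 3.28 times for the others, so that 8 Tcf7 sites were then STAT3-higher.

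STAT5 was tall at Tcf7 in other places. Site 14, from 52112951 to 52113600, had 259 STAT5 reads (14.4 RPM) and 144 STAT3 reads (6.93 RPM). Its ratio of 2.08 (1.69 to 2.57) was not called under the main settings. After correction for positions already taken it passed the call, as 2.70 (2.20 to 3.33). Site 23, from 52149401 to 52149850, had 252 STAT5 reads against 168 of STAT3, and site 24, from 52154501 to 52155250, had 218 and 224 with a ratio of 1.13 (0.930 to 1.36). These 3 sites were tall with both antibodies, which set them apart from the STAT3-leaning sites between them.

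STAT5-higher sites at Tcf7 were 4. Site 17, from 52129451 to 52129800, lay 1900 bp beyond site 16 and had the reverse balance, with 194 STAT5 reads against 38 of STAT3 (5.91 times, 4.15 to 8.60). Site 2 from 52037851 to 52038300 had 158 STAT5 reads against 35 of STAT3 (5.22 times). Site 12, from 52101751 to 52102150, had 48 STAT5 reads and no STAT3 read, and the exact interval of its ratio began at 14.5. Site 4, from 52062101 to 52062500, had 29 STAT5 reads against 2 of STAT3, a ratio of 16.8 (4.24 to 145). Sites 12 and 4 had few STAT3 reads, and their STAT5 counts lay below the Tcf7 median of 57.5. The STAT5 count of site 12 exceeded the genome's median of 31.

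At Lef1, the relative of Tcf7, the 2 tallest STAT5 sites also had STAT3. Site 17, from 130872001 to 130872600, had 367 STAT5 reads (20.4 RPM) and 130 STAT3 reads (6.25 RPM), a ratio of 3.27 (2.67 to 4.02). Site 25, from 130911401 to 130911900, had 363 and 161 reads, a ratio of 2.61 (2.16 to 3.16). STAT5 had taken 91.8% and 90.8% of the positions there, and correction for positions already taken raised the ratios to 7.34 (5.91 to 9.12) and 5.35 (4.37 to 6.55).

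Other tall STAT5 sites at Lef1 had few STAT3 reads. Site 14, from 130851901 to 130852400, had 309 STAT5 reads (17.2 RPM) and 11 STAT3 reads (0.529 RPM), a ratio of 32.5 (17.9 to 65.8). Its STAT3 count was 2.01 times the level between sites, and its STAT5 count 72.8 times. Site 13, lying 2350 bp before it, had 270 STAT5 reads against 25 of STAT3 (12.5 times, 8.28 to 19.7). Site 20, from 130889951 to 130890350, had 127 and 8 reads, a ratio of 18.4 (9.04 to 43.5). STAT3 at site 20 was 1.46 times the level between sites, whereas at site 13 it was 4.57 times that level. Correction for positions already taken raised the ratio to 61.4 (33.6 to 112) at site 14 and to 20.1 (13.3 to 30.4) at site 13.

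The tallest STAT3 site at Lef1, site 16 from 130860251 to 130860650, had 169 STAT3 reads against 122 of STAT5 and was called for neither (0.835, 0.656 to 1.06). Only 750 bp before it, site 15 had 199 STAT5 reads against 30 of STAT3 (7.67 times, 5.21 to 11.7). Neighbouring sites of one gene could therefore differ widely in their balance. Site 5, from 130814951 to 130815300, had 144 STAT3 reads against 64 of STAT5, a STAT3 level 1.94 times as high (1.44 to 2.65) that was not called. No Lef1 site was called higher with STAT3 under the main settings. The lowest ratio, 0.238 (0.0891 to 0.546), came from 34 STAT3 reads against 7 of STAT5 at site 7.

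Ets1 had the tallest STAT5 sites. Site 25, from 32530551 to 32531100, had 398 STAT5 reads (22.2 RPM), which is 99.5% of the positions, and 252 STAT3 reads (12.1 RPM). It ranked 39 of all sites by STAT5 reads. Site 14, from 32476901 to 32477400, had 389 STAT5 reads against 312 of STAT3, and site 12, from 32469151 to 32469650, had 385 and 253. Their ratios, 1.83 (1.56 to 2.15) at site 25, 1.44 (1.24 to 1.68) at site 14 and 1.76 at site 12, were not called, and STAT5 was close to the ceiling at all 3. After correction for positions already taken all 3 passed the call, with 6.17 (4.61 to 8.25) at site 25, 2.75 (2.24 to 3.36) at site 14 and 3.80 (3.11 to 4.63) at site 12. The same 3 sites were the tallest at Ets1 with STAT3.

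Between sites 12 and 14 lay a site with STAT5 almost alone. Site 13, from 32474451 to 32474750, had 315 STAT5 reads (17.5 RPM) and 9 STAT3 reads (0.433 RPM), a ratio of 40.5 (21.1 to 89.4) that became 78.7 (40.5 to 153) after correction for positions already taken, the highest of the 4 windows apart from the Tcf7 site without STAT3 reads. STAT3 there was 1.17 times the level between sites, yet 312 STAT3 reads were counted 2450 bp further on. Site 33, from 32576301 to 32576700, had 88 STAT5 reads against 3 of STAT3, a ratio of 33.9 (11.2 to 168).

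A run of STAT5-higher Ets1 sites stood close together, although it was singled out after its values were seen. Site 20, from 32502401 to 32502750, had 355 STAT5 reads against 36 of STAT3, a ratio of 11.4 (8.09 to 16.6). Site 21, from 32506551 to 32506800, had 219 and 22, and site 22, from 32510251 to 32510550, had 242 and 23. The 3 ratios, 11.4, 11.5 and 12.2, overlapped in their intervals, and correction for positions already taken raised that at site 20 to 26.8 (18.9 to 38.0). STAT3 leaned ahead at 4 Ets1 sites, of which site 27 was the tallest with 162 STAT3 reads against 72 of STAT5.

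At Bcl11b the tallest STAT3 site and the tallest STAT5 site were both lower than those of the other genes. Its sites had a median of 53.5 STAT3 reads against 40 of STAT5 per site, against 117 and 57.5 at Tcf7, 31 and 56 at Lef1 and 48.5 and 120 at Ets1. The genome's medians were 26 and 31. Its tallest STAT5 site, site 19 from 109231301 to 109232050, had 252 STAT5 reads (14.0 RPM) and 81 STAT3 reads (3.90 RPM), a ratio of 3.60 (2.79 to 4.68). Its tallest STAT3 site, site 13 from 109208201 to 109208600, had 122 STAT3 reads against 113 of STAT5, a ratio of 1.07 (0.822 to 1.40). Site 20, from 109237001 to 109237350, was likewise even, with 91 STAT3 reads against 99 of STAT5.

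Bcl11b also had a pair of neighbours of opposite balance. Site 14, from 109214351 to 109214750, had 207 STAT5 reads against 29 of STAT3 (8.26 times, 5.58 to 12.6). Site 15 lay 1350 bp further on, from 109215751 to 109216050, and had 87 STAT3 reads against 30 of STAT5, a ratio of 0.399 (0.254 to 0.610) that leaned to STAT3 without being called. Site 6, from 109158251 to 109158650, had 158 STAT5 reads against 36 of STAT3, a ratio of 5.08 (3.52 to 7.51). Site 5, from 109149501 to 109149800, had only 34 STAT5 reads against 2 of STAT3 (19.7 times, 5.04 to 169). No Bcl11b site was called higher with STAT3 under the main settings. Site 7, from 109163001 to 109163300, came nearest, with 65 STAT3 reads against 17 of STAT5, a STAT3 level 3.30 times as high (1.91 to 6.01). Correction for positions already taken brought it past the call, at 3.53 (2.07 to 6.02).

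**Figure D4:**
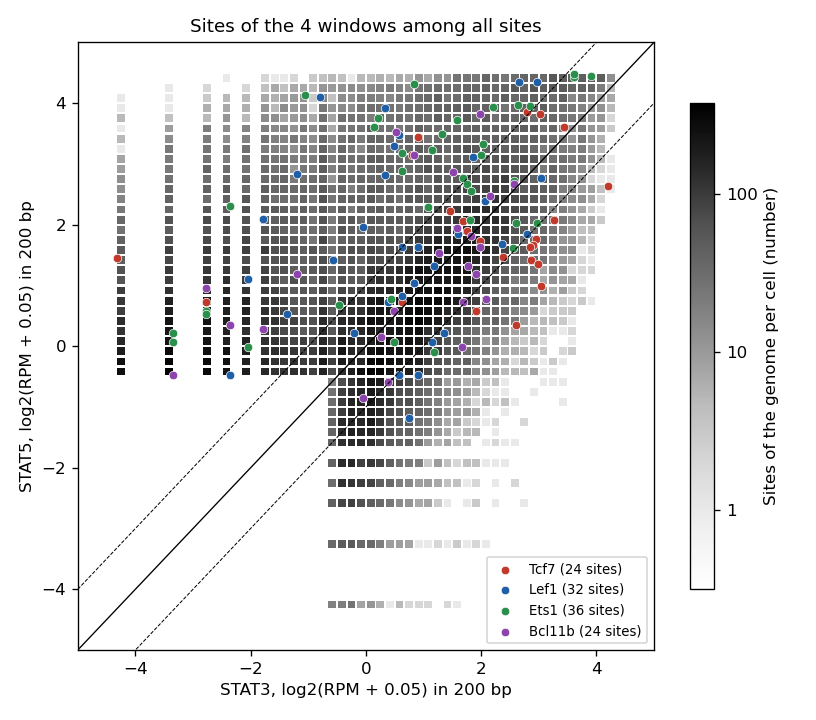
STAT3 against STAT5 on the log2(RPM + 0.05) scale in 200 bp for the sites of the 4 windows (coloured points) and all 86805 sites (grey cells, darker with more sites), with equality as a solid line and 2-fold as dashed lines. Tcf7 points gather below the line of equality at high STAT3, Ets1 and Lef1 points above it, and tall STAT5 sites span the whole range of STAT3.

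Sites tall with one antibody were not always tall with the other. Across the sites of a gene, Spearman's rho between STAT3 and STAT5 reads was 0.18 at Lef1 (32 sites), 0.28 at Tcf7 (24 sites), 0.51 at Ets1 (36 sites) and 0.55 at Bcl11b (24 sites), against 0.38 over the genome's sites. These sites share the 2 libraries and were chosen for reads in either. Regions were called with both antibodies at 15 of 24 Tcf7 sites (62.5%), 11 of 24 at Bcl11b (45.8%), 13 of 32 at Lef1 (40.6%) and 12 of 36 at Ets1 (33.3%), and at 47.5% of sites in the genome. Sites with a STAT5 region alone made up 50% of those at Ets1, 40.6% at Lef1, 29.2% at Bcl11b and 16.7% at Tcf7, with 34.1% for the genome. A site missing from one list was not always empty: the STAT3-only sites of Ets1 still had a median of 63 STAT5 reads.

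Width and spacing of the sites varied less between the genes than the balance did. Sites had a median width of 400 bp at Tcf7, 350 bp at Lef1 and Ets1 and 300 bp at Bcl11b, with 350 bp in the genome. Median distances between neighbouring sites were 5050 bp at Tcf7, 6000 bp at Lef1, 4700 bp at Ets1 and 5650 bp at Bcl11b. At the 45 sites where each antibody had 50 or more reads, medians of the fragment centres differed by a median of 13.8 bp at Tcf7, 25.8 bp at Lef1, 12.0 bp at Ets1 and 10 bp at Bcl11b. Both strands contributed in each library, with 39.8 to 63.6% of reads on the plus strand wherever a library had 50 or more reads in 200 bp.

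The windows were set by hand, and the end of the Tcf7 window and the start of the Ets1 window fell at or close to sites. A site from 52159801 to 52160100, with 56 STAT3 reads against 43 of STAT5, straddled the end of the Tcf7 window and was left out because its centre lay beyond it. The nearest site outside the Ets1 window, from 32399301 to 32399900, ended just before its start and had 156 and 215 reads. A STAT3-higher site lay before the Bcl11b window, from 109091201 to 109091550, with 24 STAT3 reads and 1 STAT5 read. Sites were not assigned to genes, because positions of exons and gene starts on mm9 were not used here. In the RefSeq table for GRCm38 the nearest protein-coding neighbours include Skp1 and Vdac1 for Tcf7, Hadh for Lef1, Fli1 (another ETS factor) for Ets1 and Setd3 for Bcl11b, so some sites may lie nearer to these.

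The RefSeq promoter table (GRCm38, from 250 bases before to 50 after a gene start) held 7 windows for Tcf7, Lef1 and Bcl11b. None contained TTCNNNGAA, the palindromic core that STAT3 and STAT5 recognise, which reads the same on both strands. It occurred in 8.30% of the 32851 promoter windows in the table. These windows were not matched to the sites above, and the absence of these letters says nothing about binding elsewhere.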

How the data were processed

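The deposited files list 1 aligned read of 25 nt per line by position and strand, beside a score and a descriptor of the match. Per the submitters' processing notes, reads were placed on mm9. Aligner name and the step that left 1 read per position and strand were not stated in these sources. The deposited score was 0 in each line and was not used.

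Read 5′ ends were moved 50 bp in the 3′ direction and counted in 200 bp windows, step 50 bp. Windows with at least 5 reads, a count of 4 or more times each of 3 means (genome-wide, over 5 kb and over 10 kb), and a Poisson p (1-sided, Benjamini-Hochberg adjusted over the genome) at or below 1e-05 were joined within 100 bp. Regions with over 80% of summit reads on 1 strand were left out, which left 57316 STAT3 and 71014 STAT5 regions. Overlapping regions formed sites, counted in the tallest 200 bp window of either library, a choice that favours the taller library. Intervals are exact conditional (Clopper-Pearson). Those of single sites after correction for positions already taken are instead normal approximations on the log ratio. Levels between sites leave out regions and 200 bp beside them. The caller was tested on simulated reads with isolated planted sites on an even background. These windows differ from that setting, with dense sites and a raised level between sites, so the test does not cover them.

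The genes, the STAT3-higher site, gene windows and thresholds were chosen with earlier results of these data known. Sites named were the 3 tallest per library and window, each STAT3-higher site and the 2 STAT5-higher sites with the largest lower bound; others named were chosen after their values were seen. Alternatives changed the thresholds, the scaling, the counting width, the shift and the ceiling correction. Steps ran in Python 3.11.15 with pandas 2.3.3, numpy 2.4.6 and scipy 1.17.1, and plots in matplotlib 3.10.9.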

Additional observations from a re-analysis of the deposited data

Results flagged for a closer look

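The match descriptor of each read was not used in the comparisons. In the 4 windows, 671 STAT3 reads (1.87%) and 721 STAT5 reads (1.85%) were not exact matches. Over all reads of the libraries the shares were similar, 1.85% and 1.84%.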

How the results depend on the processing

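No paired analysis was possible because there is 1 library per antibody. Of the alternatives, subtraction of the level between sites and removal of Tcf7 site 16 were chosen after the data were seen. Counts that changed by at most 1.5 times, and ratios that stayed inside their 95% interval, made up 31 recalculations, while 32 moved further and 2 reversed. Ratios below are STAT5 to STAT3 summed over a window's sites. Sites of at least 8-fold numbered 45, of which 18 were higher with STAT5 and 1 with STAT3. Of such sites in the genome, 35.2% and 3.21% were so called. The ratios were 1.23 at Tcf7 (reversed), 3.46 at Lef1, 1.79 at Ets1 and 2.91 at Bcl11b. The genome-wide mean alone gave 267 sites, 9 of them higher with STAT3 (2.77% in the genome). Its ratios were 1.85 at Lef1, 1.98 at Ets1 and 1.42 at Bcl11b. Fewer or more sites follow from these thresholds. Under scaling by bins without a region, STAT3 stood at 0.723 of its RPM level. That gave 1.20 at Tcf7 (reversed), 3.23 at Lef1, 3.31 at Ets1 and 2.13 at Bcl11b. The same scaling left 2 STAT3-higher sites (1.19% in the genome) and put STAT3 at Tcf7 site 16 at 2.14 times STAT5. Scaling to a median ratio of 1 at shared sites gave 0.808 at Tcf7, 2.18 at Lef1 and 2.23 at Ets1. Counting in 400 bp gave 0.785 at Tcf7 and 2.14 at Lef1, and a shift of 75 bp gave 2.54 at Lef1. Correction for positions taken gave 0.736 at Tcf7, 3.35 at Lef1, 3.76 at Ets1 and 1.73 at Bcl11b. With that correction 9 sites were STAT3-higher (3.96% in the genome), and STAT3 at Tcf7 site 16 stood at 8.10 times STAT5. A limit of 1.5-fold gave 13 STAT3-higher sites (6.77% in the genome). Subtracting the level between sites gave 2.52 at Lef1 and 2.51 at Ets1, and Tcf7 without site 16 was 0.951. Beyond what each rule fixes, the cause was not tested. Sites with few reads, such as the STAT5-higher Tcf7 sites 4 and 12, have wide intervals.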
